A study of Pyrus syriaca and Pyrus pyrifolia and Pyrus communis with 12 samples.

Results

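The miRs described here belong to plant families that respond to copper, phosphate and sulfate. They are 9 of the 355 mature miRs in the deposited count table, of which 120 had at least 1 read. They were chosen by name, with earlier results of these data known: fve-miR397, mdm-miR397a and mdm-miR408b for copper, mdm-miR399d, mdm-miR399i and mdm-miR399k for phosphate, and mdm-miR395a, mdm-miR395l and mdm-miR395d-5p for sulfate. The prefix gives the species of the reference entry, fve for strawberry, mdm for apple and ppe for peach, since no pear entry was used. Every one of the 9 held a read, so their counts are set beside the 120 miRs with a read.

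Small RNA was sequenced from stigma exudates, the watery secretion rinsed off the stigma, and from whole stigmas of non-pollinated pear flowers at 12 hours after anthesis (HAA). The wild P. syriaca came from Golan (altitude 900 m), Manara (450 m) and SASA (830 m). The cultivated pears were the P. pyrifolia cultivars Hosui and Shinsui and the P. communis cultivar Spadona, all from 430 m. Each genotype gave 1 exudate and 1 stigma library, 12 in all, made from pooled flowers, so that the spread given below is that between genotypes and none was measured within a genotype. Species, place and altitude cannot be told apart between the wild and the cultivated pears.

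In plants the families of miR397, miR408, miR399 and miR395 are known as regulators of nutrient use. When copper is short, miR397 and miR408 rise and repress transcripts of copper proteins, among them laccases, the enzymes that couple monolignols into lignin, and so spare copper for other proteins. When phosphate is short, miR399 rises and represses PHO2, an E2 ubiquitin-conjugating enzyme that removes phosphate transporters, and when sulfate is short, miR395 rises and represses ATP sulfurylases and the sulfate transporter SULTR2;1.

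The mature sequences are shown because they decide which rows can share a read. All are from the deposited table, 5′ to 3′, with the seed (bases 2 to 8) in capitals.
fve-miR397: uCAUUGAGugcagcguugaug
mdm-miR397a: uUGAGUGCagcguugaugaaa
mdm-miR408b: aCAGGGAAgagguagagcaug
mdm-miR399d: uGCCAAAGgagaguugcccua
mdm-miR399i: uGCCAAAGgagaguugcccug
mdm-miR399k: uGCCAAAGgagaguugcccuu
mdm-miR395a: cUGAAGUGuuugggggaacuc
mdm-miR395l: cUGAAGUGuuugggggaaccc
mdm-miR395d-5p: gUUCCCUUgaccacuucauug

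The 9 rows are not 9 independent measurements. The miR397 entries share a run of 18 bases, which starts at base 4 of fve-miR397 and at base 1 of mdm-miR397a, and this shift gives them different seeds. They had equal counts in all 12 libraries. The miR399 entries share their seed and the first 20 bases and differ only at base 21, counted from the 5′ end, as A21G between mdm-miR399d and mdm-miR399i and A21U between mdm-miR399d and mdm-miR399k. Their counts were equal in 11 of 12 libraries. mdm-miR395a and mdm-miR395l share a seed and differ by U20C, and their counts differed in 4 of 12 libraries. The deposited counts allowed 7% mismatches. Assignment to a mature miR also tolerated a shift of up to 11 bases, given an overlap of 50% or more. How a read that matches several such neighbors was assigned cannot be read from the counts. The equal counts of the miR397 entries thus do not show that each of them was present.

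The table lists the same sequences under their names in other plants. The sequence of fve-miR397 is that of Arabidopsis ath-miR397a, that of mdm-miR399i is ath-miR399b and ath-miR399c-3p, and that of mdm-miR395a is ath-miR395a, ath-miR395d and ath-miR395e. mdm-miR408b carries no Arabidopsis name. It pairs over a run of 11 bases with the usual miR408, as the 2 arms of a hairpin do. The usual miR408 is in the table as the following entries, shown for comparison.
fve-miR408: uGCACUGCcucuucccuggcu
mdm-miR408a: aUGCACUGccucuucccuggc
Neither had a read in any library, so that every miR408 read was of mdm-miR408b. It is called a copper miR below by its family name, and whether this arm acts on copper proteins was not tested. The table places the hairpin of fve-miR397 on the minus strand of strawberry linkage group 3 (LG3:2934926-2935064), that of mdm-miR397a on apple contig MDC000805.395 (32063-32163, minus strand) and that of mdm-miR408b on apple contig MDC006859.349 (17335-17419, minus strand). The hairpins of mdm-miR395a and mdm-miR395l lie on the same apple contig, MDC003768.152, at 26163-26255 and 35976-36111. The genome builds of these coordinates, and the genes around them, are not given in the sources used here.

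The libraries were shallow. The reads assigned to any miR ranged from 27 to 176 in exudates and from 199 to 1777 in stigmas, and a miR without a read can hold up to 1.70% (Manara) to 11.1% (SASA) of an exudate library and up to 0.169% (Manara) to 1.51% (Shinsui) of a stigma library (3 reads of the total). All shares below are percentages of these assigned reads. Intervals are 95% Wilson intervals and, like the limits, cover counting error only, since the reads carried no molecular identifiers. A lower share can come from fewer cells of a type or from less of the miR per cell, which bulk samples cannot tell apart.

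The 9 rows held 27 of 422 exudate reads and 156 of 5276 stigma reads. Of these 183 reads, 163 lay in libraries of Golan and Manara (89.1%), which held 64.2% of all assigned reads. The copper miRs had 138 of their 139 reads there. Hosui and SASA had no read of any of the 9 rows in either tissue.

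**Figure D1:**
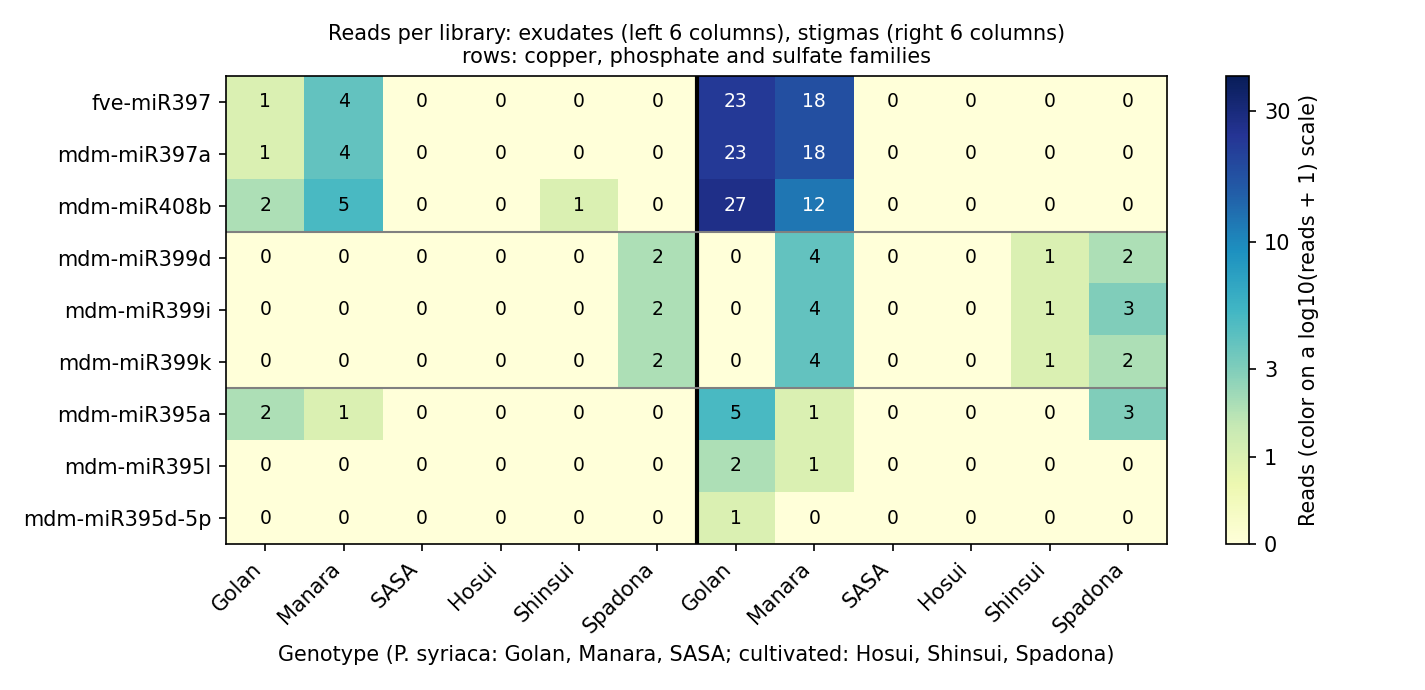
Reads of each of the 9 miRs (rows) in each of the 12 libraries (columns), with the 6 exudates left and the 6 stigmas right and P. syriaca before the cultivated genotypes. Color follows log10(reads + 1), and the copper miRs are seen to reach 12 to 27 reads in the Golan and Manara stigmas while no other value exceeds 5 reads.

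fve-miR397, the copper miR whose known targets are laccases, was present in wild pears from 2 places and was not seen elsewhere. In exudates it had 1 read of 50 in Golan, 4 of 176 in Manara and none in SASA, Hosui, Shinsui and Spadona. In stigmas it had 23 reads of 1657 in Golan, 18 of 1777 in Manara and none in the other 4. The stigma share was 1.39% in Golan (interval 0.927 to 2.07%) and 1.01% in Manara (0.642 to 1.60%). The same kind of interval for 0 reads reached up to 0.481% in SASA, 1.13% in Hosui, 1.89% in Shinsui and 0.745% in Spadona. That of SASA thus lay below those of both Golan and Manara, that of Spadona below Golan's alone, and those of Hosui and Shinsui overlapped both. mdm-miR397a had the same counts throughout.

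mdm-miR408b, from the other copper family, followed the same genotypes. In exudates it had 2 reads in Golan, 5 in Manara, none in SASA, 1 in Shinsui and none in Hosui and Spadona. In stigmas it had 27 reads in Golan and 12 in Manara, and none in SASA or the cultivated pears. The stigma share was 1.63% in Golan (1.12 to 2.36%) and 0.675% in Manara (0.387 to 1.18%). The intervals of SASA and Spadona lay below Golan's, those of Hosui and Shinsui reached into it, and all 4 overlapped Manara's. The single read of Shinsui, 1.27% of its exudate (0.224 to 6.83%), was the only copper read in a cultivated pear.

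The wild and cultivated stigmas were compared by edgeR's quasi-likelihood test over the 30 miRs with at least 10 stigma reads, of which 3.33% passed an FDR of 0.05. This was 1 miR, mdm-miR482d, and 0 of the 3 copper rows were called by edgeR or by DESeq2. On simulated counts of exudates and stigmas at the depth of the present libraries, many edgeR calls between the tissues were of unchanged miRs. The comparison of stigmas alone was not simulated, so how often its calls are false is not known. Every call given here is thus uncertain. fve-miR397 averaged 0.800 ± 0.718% in P. syriaca stigmas and 0% in cultivated stigmas (SD, n = 3 each), and mdm-miR408b averaged 0.768 ± 0.819% in P. syriaca stigmas and 0% in cultivated stigmas. The groups overlapped, since SASA had no read. With the cultivated stigmas set to 3 reads over their 1048, the pooled P. syriaca share was 3.39-fold this limit for fve-miR397 and 3.22-fold for mdm-miR408b. These folds are no lower bounds for P. syriaca, since they leave out the spread between genotypes and the counting error of its reads. All the pooled reads came from Golan and Manara, through which alone the rows passed the filter of 10 stigma reads. The folds also rest on single libraries: without Spadona they were 1.73 and 1.65 in this order, and without Golan that of mdm-miR408b was 1.63. The edgeR log2 fold changes of 5.98 (SE 2.98) for fve-miR397 and 5.97 (SE 3.08) for mdm-miR408b stand against a group at 0 and are no measure of size, and their edgeR p was 0.0671 and 0.0763 in this order, or 0.285 for both after adjustment. An exact permutation test of the shares, two-sided, gave p = 0.4 for each, where 3 against 3 libraries cannot go below 0.1. Without SASA the adjusted p of edgeR was 0.0341 for the 3 copper rows, and without a filter on low counts it was 0.0127. Over all alternatives it ranged from 0.0127 to 0.727 for fve-miR397 and to 0.820 for mdm-miR408b.

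Of the 30 miRs with at least 10 stigma reads, 10% had no read in any cultivated stigma, and these were the 3 copper rows. Likewise 10% had no read in the SASA stigma, again the 3 copper rows. These shares are a description, since the rows reached 10 reads through the Golan and Manara stigmas alone and the miR397 rows are copies of each other. SASA's stigma library was deeper than any cultivated one, with 794 reads. The flowers were not pollinated. For the exudates the anthers were removed before the rinse and pollen was cleared by centrifugation, steps that the authors do not state for the stigmas. The miR159 and miR845 families are taken here as families known from pollen, but they are also used elsewhere in the plant and are no measure of pollen. Together these families took 3.26%, 4.28% and 8.19% of the Golan, Manara and SASA stigma libraries, against 0.977 to 3.52% of the cultivated ones, with all reads from miR159 rows and miR845 at 0. They took 0 to 6.12% of the exudates and were at 0 in the Manara exudate, where both copper families were present. Their part in the copper result was not tested.

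**Figure D2:**
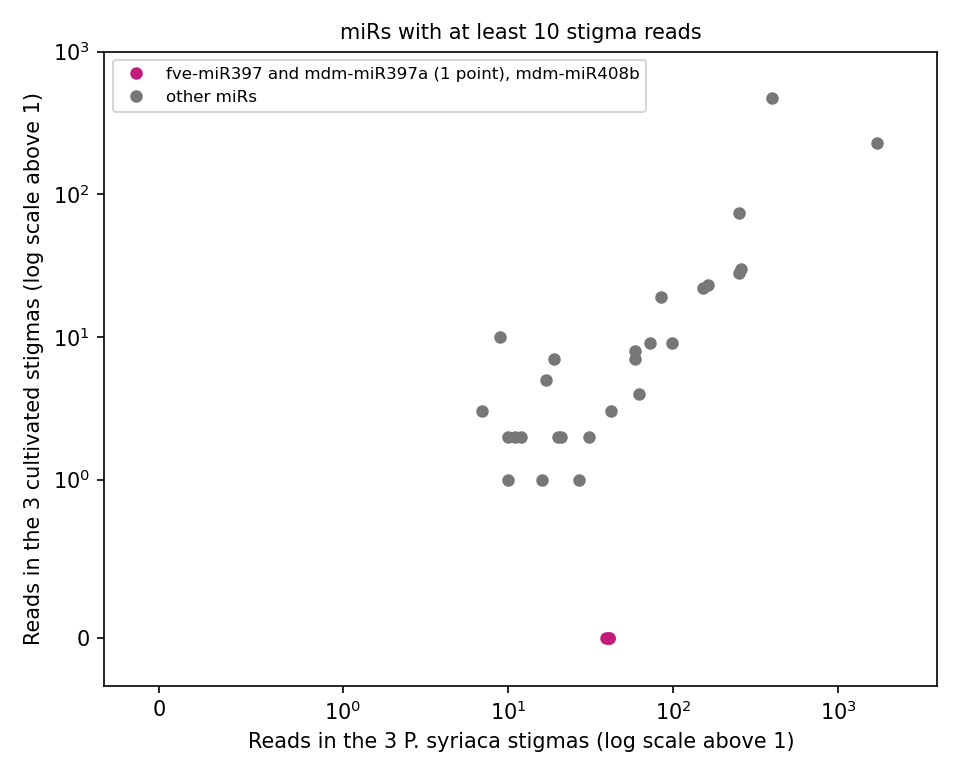
Reads summed over the 3 P. syriaca stigmas (horizontal axis) and the 3 cultivated stigmas (vertical axis) for the 30 miRs with at least 10 stigma reads, on axes that are logarithmic above 1. fve-miR397 and mdm-miR397a, with 41 reads in P. syriaca, and mdm-miR408b, with 39, lie at 0 on the vertical axis, where no other miR lies.

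The phosphate miRs were spread differently over the genotypes. In exudates mdm-miR399i had 2 reads in Spadona and none in Golan, Manara, SASA, Hosui and Shinsui. In stigmas it had 4 reads in Manara, none in Golan and SASA, 1 in Shinsui, 3 in Spadona and none in Hosui. mdm-miR399d and mdm-miR399k had the same counts but for 2 reads in the Spadona stigma. Golan, whose stigma held 27 reads of mdm-miR408b, thus had no miR399 read in either tissue, with a limit of 0.181% in its stigma. The stigma share of mdm-miR399i was 0.225% in Manara (0.0876 to 0.577%), 0.503% in Shinsui (0.0888 to 2.79%) and 0.586% in Spadona (0.199 to 1.71%). P. syriaca stigmas averaged 0.0750 ± 0.130% and cultivated stigmas 0.363 ± 0.317% (SD, n = 3 each, exact permutation p = 0.4, where 0.1 is the smallest possible).

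The sulfate miRs were seen in 3 genotypes. In exudates mdm-miR395a had 2 reads in Golan, 1 in Manara and none in the other 4. In stigmas it had 5 reads in Golan, 1 in Manara, 3 in Spadona and none in SASA, Hosui and Shinsui. mdm-miR395l, which differs from it by 1 base, had 2 reads in the Golan stigma and 1 in the Manara stigma. mdm-miR395d-5p, from the opposite arm, had 1 read in the Golan stigma. P. syriaca stigmas averaged 0.119 ± 0.160% of mdm-miR395a and cultivated stigmas 0.195 ± 0.338% (SD, n = 3 each, exact permutation p = 1), and the sign of this difference changed without Spadona.

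**Figure D3:**
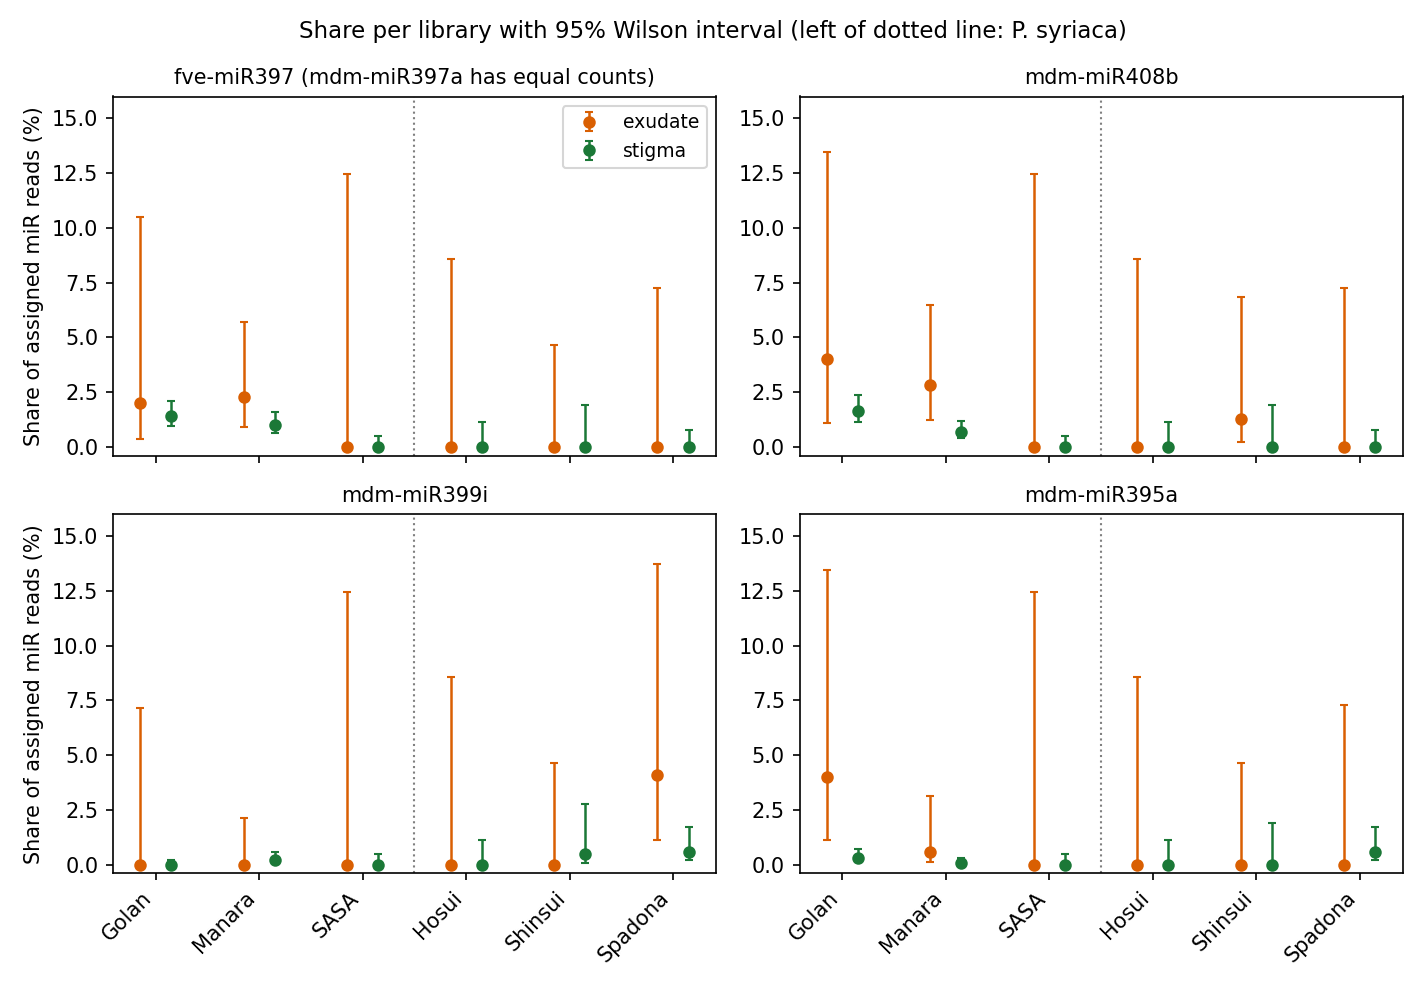
Share of the assigned miR reads (vertical axis, %) of 4 miRs in each genotype (horizontal axis), exudate left of stigma, with 95% Wilson intervals that cover counting error only. The intervals of the exudates reach up to 13.7%, whereas the stigma shares of the copper miRs in Golan and Manara stand clear of 0.

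Exudates and stigmas were then compared, to ask which miRs the exudate holds. Presence in a tissue required at least 2 reads in any of its libraries. By this rule 7 of the 9 rows were present in exudates, where 23.3% of the 120 miRs with a read were, and 8 of 9 in stigmas, where 59.2% were. These shares are a description and show no excess. The 9 rows were chosen with earlier results known, and other rows of the same families, left out of the 9, had no read but for 1 of ppe-miR395a-3p. The 7 present in exudates were the copper and phosphate rows and mdm-miR395a, and all were common to both tissues. They come from 4 families, since the miR397 rows repeat each other and so do the miR399 rows. mdm-miR395l was present in stigmas without an exudate read, and mdm-miR395d-5p, with its single read, counted in neither. With at least 3 reads required, 3 rows were present in exudates, the copper rows, and without Spadona 4 were.

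With 1 entry per family (fve-miR397, mdm-miR408b, mdm-miR399i and mdm-miR395a), the families together took 10% of the Golan exudate (4.35 to 21.4%) against 3.32% of its stigma (2.56 to 4.30%). They took 5.68% of the Manara exudate (3.12 to 10.1%) against 1.97% of its stigma (1.42 to 2.73%). In Shinsui they took 1.27% of the exudate against 0.503% of the stigma, on 1 read each. That read was of mdm-miR408b in the exudate and of mdm-miR399i in the stigma. In Spadona they took 4.08% of the exudate (1.13 to 13.7%) against 1.17% of the stigma (0.538 to 2.53%). Of mdm-miR395a, Spadona had 3 stigma reads and no exudate read. The summed exudate share was thus the higher one in the 4 genotypes with any read, while no single family was higher in all 4. TMM scaling, edgeR's correction for unequal library make-up, kept these signs but narrowed the gap in all but Manara: the scaled shares were 7.92% in the exudate against 6.12% in the stigma of Golan, 7.12% against 2.45% in Manara, 0.975% against 0.819% in Shinsui and 3.62% against 2.42% in Spadona. The intervals did not overlap in Manara under either scaling, and in Golan they overlapped after TMM scaling (3.44 to 16.9% against 4.72 to 7.92%).

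Taken singly, no row passed the test between exudates and stigmas. Of the 35 miRs with at least 10 reads, 20% passed an FDR of 0.05 by edgeR, and none of the 5 rows among them did, nor did any reach an unadjusted p of 0.05. DESeq2 called 0 of the 5 as well. The edgeR fit did not use the pairing by genotype, and with the genotype as a block it called 0 of the 5 too. The log2 fold change of exudate over stigma was -0.16 (SE 0.92, adjusted p = 0.896) for fve-miR397 and mdm-miR397a, 0.52 (SE 0.83, adjusted p = 0.723) for mdm-miR408b, 0.45 (SE 1.16, adjusted p = 0.875) for mdm-miR399i and 0.81 (SE 1.11, adjusted p = 0.682) for mdm-miR395a. The median of the 5, with both miR397 copies counted, was 0.45, beside a median of -1.44 over all 35. This background moved with the scaling: with library sizes alone it was -0.17, and the median of the 5 was then 1.61, with 5 of 5 rows higher in exudates (45.7% of all 35) against 3 of 5 under TMM scaling (25.7% of all 35). The fold change of fve-miR397 and mdm-miR397a turned to 1.03 under that scaling and to 0.47 with the genotype as a block. That of mdm-miR408b turned to -0.35 without Manara, and that of mdm-miR399i to -2.47 without Spadona.

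**Figure D4:**
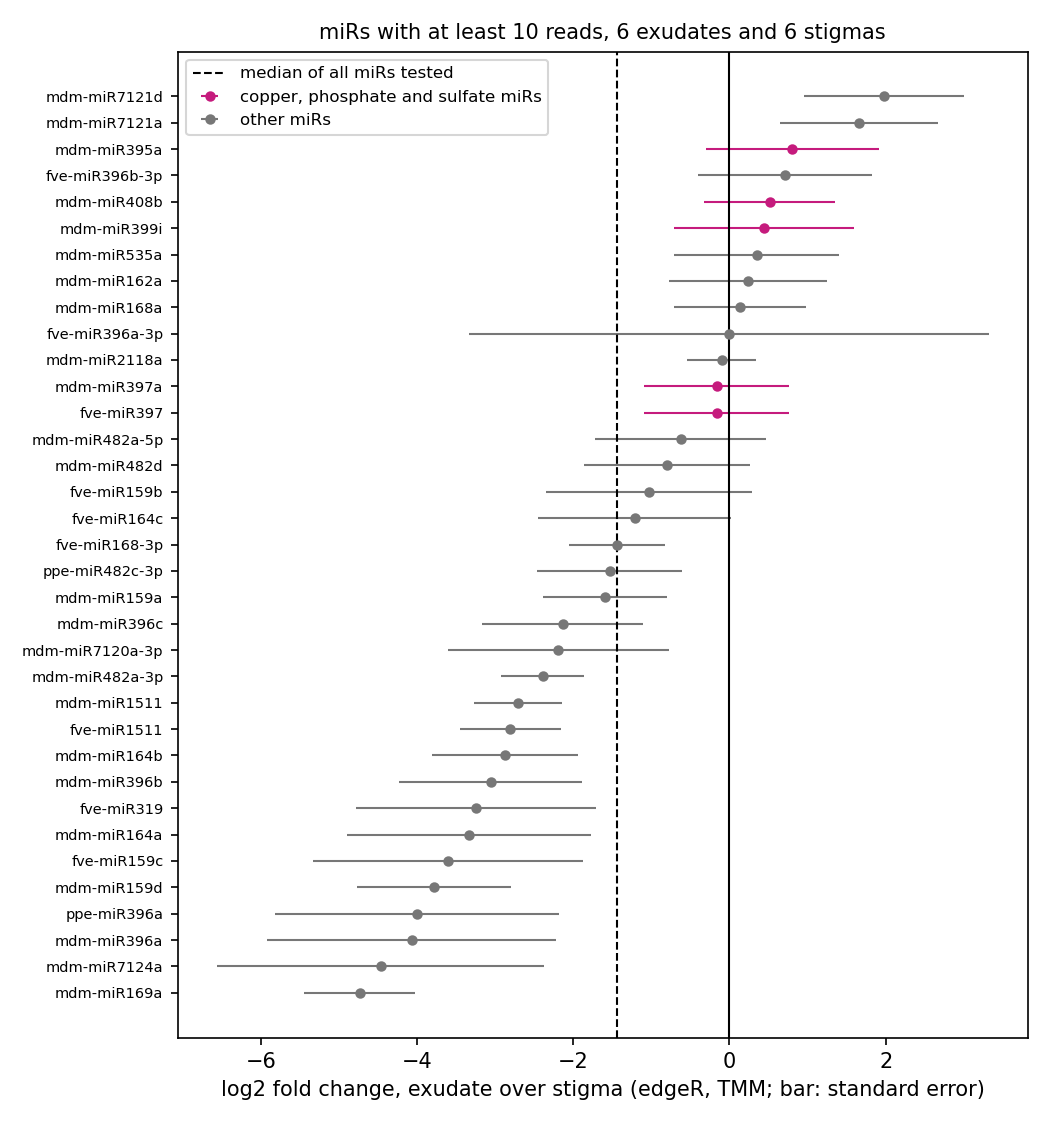
log2 fold change of exudate over stigma by edgeR (horizontal axis, bars are standard errors) for the 35 miRs with at least 10 reads (vertical axis), with the 5 copper, phosphate and sulfate rows in color. The 5 lie between -0.16 and 0.81, right of the dashed median of -1.44 over all 35, and the bars of all 5 cross 0.

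The shares were also compared within genotypes. mdm-miR408b averaged 1.35 ± 1.72% in exudates and 0.384 ± 0.667% in stigmas (SD, n = 6), and was higher in the exudate of 3 genotypes and without a read in 3 (exact two-sided sign-flip permutation p = 0.25, adjusted p = 0.398 over 35 miRs). A genotype without a read in either tissue adds nothing to this test, so the smallest p it could give was 0.25 for mdm-miR408b, mdm-miR395a and mdm-miR399i and 0.5 for the miR397 rows. fve-miR397 averaged 0.712 ± 1.11% in exudates and 0.400 ± 0.631% in stigmas, higher in the exudate of 2 genotypes and without a read in 4 (exact p = 0.5, adjusted p = 0.673). mdm-miR395a averaged 0.761 ± 1.60% in exudates and 0.157 ± 0.240% in stigmas, higher in the exudate of 2 genotypes and lower in 1 (exact p = 0.75, adjusted p = 0.905). mdm-miR399i averaged 0.680 ± 1.67% in exudates and 0.219 ± 0.268% in stigmas, higher in the exudate of 1 genotype and lower in 2 (exact p = 1). The mean share was higher in exudates for all 5 rows, of which the miR397 rows are copies, against 48.6% of the 35 miRs. This is a description and shows no excess, since the signs of mdm-miR395a and mdm-miR399i each rest on 1 genotype, as given below. After adjustment 0% of the 35 passed the sign-flip test. With 6 genotypes its smallest unadjusted p is 0.03125, which 4 of 35 reached, so that it says nothing on whether the 5 rows differ. Without Golan the mean share of mdm-miR395a differed by -0.0148 points (exudate minus stigma), and without Spadona that of mdm-miR399i by -0.146 points.

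Each row was compared with the other miRs of at least 10 reads by Spearman's rho of the shares over the 12 libraries. This is a description, since libraries share depth and shallow ones share their zeros. The miR closest to fve-miR397, apart from its copy, was mdm-miR408b (rho 0.886), then mdm-miR395a (0.765) and fve-miR164c (0.598). mdm-miR408b was also close to mdm-miR395a (0.670), which was as close to mdm-miR164b (0.672), a miR of no nutrient family. mdm-miR399i was closest to no other nutrient miR but to mdm-miR396b (0.647), mdm-miR169a (0.512) and mdm-miR396c (0.505).

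The other nutrient rows of the table were almost silent. The families miR395, miR397, miR398, miR399, miR408, miR827 and miR2111 had 29 rows, of which 10 had a read, and those were the 9 described here and ppe-miR395a-3p, with 1 read in the Manara exudate. miR398, the third copper family, had 4 rows, miR827, a phosphate family, 2 rows, and miR2111, also known from phosphate shortage, 3 rows, all without a read. At exudate totals of 27 to 176 this says little of the exudates.

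The targets that the authors predicted in Arabidopsis transcripts hold known targets of miR397, miR399 and miR395 and none of miR408. The 9 rows had 29 pairings with 22 loci, 23 of them in the table for miRs of exudates and 6 in that for miRs of stigmas only. Of the 16 loci from the exudate table, 11 are in the authors' pollen list, where 25 of all 47 loci of that table are. The authors give this list as pollen-transcribed genes among the predicted targets of exudate miRs, and its 25 loci all lie in the exudate table. A locus of the stigma table can thus be in it only if it is in the exudate table too. None of the 6 loci from the stigma table is in it, where 4 of all 120 are. This does not show whether those 6 are expressed in pollen. Of the 22 loci, 6 are known targets of these families. The locus column of the tables carries no name and does not always match the sites, so the locus of each pairing, those of the laccases included, is given as the tables have it. The sites below are those of the laccases, PHO2 and the sulfate genes, 5′ to 3′ along the transcript, with bases in capitals where the site has a mismatch or a G:U pair to the miR.
LAC2 with fve-miR397: AaucaaUgcugcacucaauga
LAC4 with fve-miR397: AGucaacgcugcacuUaauga
LAC17 with fve-miR397: AaucaaUgcugcacuUaauga
PHO2 with mdm-miR399d: uagggcaaAucuUcuuuggca
PHO2 with mdm-miR399i: UagggcaaAucuUcuuuggca
APS4 with mdm-miR395l: gAguuccUccaaacacuucaU
SULTR2;1 with mdm-miR395l: AAguucUcccaaacacuucaA

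The laccases were the leading group of fve-miR397, 3 of its 4 loci. LAC2 (AT2G29130, transcript positions 729 to 749) paired at 19 of 21 bases with 1 G:U pair and 1 mismatch. LAC4, also named IRX12 (AT2G38080, 749 to 769), and LAC17 (AT5G60020, 742 to 762), the laccases known for lignin of the Arabidopsis stem, each paired at 18 bases with 2 G:U pairs and 1 mismatch. LAC2 and LAC4 are in the pollen list and LAC17 is not. These 3 are the laccases in the exudate table, and the stigma table held 0. mdm-miR397a had 8 loci, among them the same 3 laccases and LOX2 (AT3G45140), a lipoxygenase of jasmonate synthesis that is also in the pollen list.

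Several sites stand at more than 1 locus. The site given for mdm-miR397a at LAC17 starts at 746 and shares 18 bases with the site of fve-miR397 at LAC4, at the same positions, while it differs from the fve-miR397 site at LAC17. mdm-miR408b is given 1 and the same site at 1557 in both AT2G47020 and AT4G02940, and mdm-miR395l 1 site at 3567 in both AT5G13630 and AT4G23990. mdm-miR397a has equal sites at AT3G30350 and AT5G38830, of which AT5G38830 is among the 11 loci in the pollen list, as are AT2G47020 and AT4G02940. The site of both miR397 entries at LAC2 shares its 18 common bases.

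All 3 miR399 rows were paired with the same PHO2 site (AT2G33770, 607 to 627), and the last miR base alone sets them apart there: mdm-miR399d, which ends in A, paired at 19 of 21 bases, and mdm-miR399i and mdm-miR399k paired at 18. The other locus given for all 3 was A/N-InvC (AT3G06500), an alkaline/neutral invertase that cleaves sucrose. Its site was at 740 to 760 for mdm-miR399d and at 829 to 849 for mdm-miR399i and mdm-miR399k. These sites are much like the PHO2 site. Since the locus column does not always match the sites, whether they lie in the A/N-InvC transcript is not known and was not tested. PHO2 and A/N-InvC are both in the pollen list.

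mdm-miR395l had 6 loci in the stigma table, with APS4 (AT5G43780, 395 to 415), an ATP sulfurylase, paired at 18 of 21 bases, and the sulfate transporter gene SULTR2;1 (AT5G10180, 125 to 145) at 17. mdm-miR395a and mdm-miR395d-5p had no pairing in either table, so the sulfate targets given there rest on a row with 3 reads. By sequence, however, U20 of mdm-miR395a would pair with the A at base 2 of all 6 sites, where C20 of mdm-miR395l has a mismatch. The missing pairings thus do not show that mdm-miR395a lacks these targets, and why they are missing was not tested. mdm-miR408b had 5 loci, 0 of them known targets of miR408. Those targets are known for the usual miR408, which had no read and shares no run of more than 3 bases with mdm-miR408b. The sites of mdm-miR408b pair with bases 2 to 21, and 4 of the 5 hold a G:U pair at base 10 or 11, where a plant miR guides the cut, against 0 among the sites of the other rows.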

How the data were processed

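The deposited counts are reads per mature miR sequence, and no normalization was applied to them. The authors trimmed reads with Cutadapt 1.1, kept 18 to 28 bases, and assigned them to strawberry, apple and peach entries of miRBase 22, allowing 7% mismatches. A read could be shifted by up to 11 bases from the mature miR, given an overlap of 50% or more. Where a sequence had several entries, the authors took the mean of their counts. The deposited target tables come from psRNATarget with an expectation of at most 2.5, and their locus column carries no name. The GO tables hold the authors' own enrichment p-values and were not used.

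Exudates were compared with stigmas (6 libraries each), and P. syriaca with cultivated stigmas (3 each), by edgeR 4.0.16 (quasi-likelihood test, TMM, R 4.3.3) on all miRs with at least 10 reads over the libraries compared, with Benjamini-Hochberg adjustment and an FDR of 0.05. edgeR's own filter left 3 miRs between the tissues and 8 between the stigmas, and none of the 9 rows in either. Shares were tested by exact sign flips over genotypes or exact permutation, two-sided, with scipy 1.17.1. DESeq2 1.42.0, other scalings and filters, blocking by genotype, a fit within P. syriaca and leaving out each genotype were the alternatives. Targets are named when known for the family or when the pollen list names them. The members and lists were chosen with earlier results of these data known. The edgeR fit of exudates against stigmas was tested on simulated counts, in which a set of miRs was changed by a known fold. It recovered the changed miRs at greater depth, but at the depth of these libraries many of its calls were false. The fit between stigmas was not simulated.

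Both libraries of a genotype come from that genotype by design. Their deviations from the tissue means correlated by -0.0764 to 0.634, above 0.1 in 3 of 6 genotypes. The stigma closest to an exudate was that of its own genotype in 2 of 6 genotypes.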

Additional observations from a re-analysis of the deposited data

Results flagged for a closer look

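A sample far from the others was looked for in 10 groups (5 miRs in 6 exudates and in 6 stigmas), and 2 were found, where chance flags about 1 in 20 groups of values without ties. With most exudates at 0, a single library with reads is set apart by construction, so that rate does not apply here. The exudate share of mdm-miR399i was 4.08% in Spadona, on 2 reads, and 0 in the other 5 genotypes. The exudate share of mdm-miR395a was 4% in Golan, also on 2 reads, with the next at 0.568% in Manara.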

How the results depend on the processing

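The count of 7 miRs past the FDR between exudates and stigmas was 1 with library size only, 0 with filterByExpr (3 miRs tested), 3 in P. syriaca alone and 4 with 1 entry per miR family, and ranged over 2 to 6 with 1 genotype left out. It was 6 with the genotype as a replicate block. None of these called a copper, phosphate or sulfate row. The count of 1 between wild and cultivated stigmas was 0 with RLE, with library size only and with DESeq2, 4 without a filter, 2 with filterByExpr, and 0 to 3 with 1 genotype left out. The copper rows were called without SASA (log2 fold change 6.37 for the miR397 rows and 6.32 for mdm-miR408b) and without a filter (6.18 and 6.17 in the same order). With 1 genotype left out, a check chosen after seeing the data, their pooled folds over the limit of the cultivated stigmas ranged from 1.73 to 4.17 for the miR397 rows and from 1.63 to 3.97 for mdm-miR408b. The unpaired test of shares, with no replicate block, called 2 of 35 miRs against 0. The 7 rows present in exudates became 3 with at least 3 reads and 1 with at least 2 libraries, and 4 to 7 with 1 genotype left out.

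Exudate over stigma, the log2 fold change of the miR397 rows turned positive with library size only (1.03), with the replicate block (0.47) and in P. syriaca alone (0.24), and ranged from -1.59 to 0.45 with 1 genotype left out. That of mdm-miR408b was -0.17 without a filter and ranged from -0.35 to 1.49, and that of mdm-miR399i was -2.69 in P. syriaca alone and ranged from -2.47 to 0.90. The share difference of mdm-miR399i was -0.0750 points in P. syriaca alone and ranged from -0.146 to 0.654, and that of mdm-miR395a from -0.0148 to 0.842. In stigmas, P. syriaca minus cultivated, mdm-miR395a ranged from -0.174 to 0.119 points. A stricter expectation for targets was not run, since the tables used here give none. With at most 27 reads per row and library, low counts limit every comparison here, and the causes of the changes above were not tested.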
